A study of Dunaliella salina with 9 samples.

Results

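Blue light was set against red light in 6 of the 9 RNA-sequencing libraries of the study, the 3 blue and the 3 red ones, chosen by the light named in their labels. All came from cultures of Dunaliella salina, a single-celled green alga of salt lakes that can store large amounts of β-carotene. The blue group received 450 nm light and the red group 660 nm light, both at a flux of 50 µmol photons on each square metre per second. The white group, under cool white light at the same flux, took no part in the test. All cells had been grown at 22 °C under white fluorescent lamps in cycles of 14 h light and 10 h dark. In mid-exponential phase they were spun down and put into fresh medium under the light of their group. The sources used here do not give the strain, the time under each light or the number of separate cultures. If the 3 samples of a light shared a culture, the p-values reflect technical spread only. A batch was not labelled, so a batch and the light cannot be told apart.

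Blue and red light both drive photosynthesis, because chlorophylls absorb in both ranges. Carotenoids absorb in the blue, where they pass energy to chlorophyll or shed its excess. In green algae such as Chlamydomonas, blue light is also sensed by the flavin-based photoreceptors phototropin and cryptochrome. The title of the series asks how red and blue light act on the transcriptome with regard to carotenoid synthesis. The direct comparison asks which transcripts differ between both colours at an equal photon flux.

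Reads had been counted on 115975 transcript clusters known only by number, of which 35241 had enough counts in the 6 libraries to be tested. No cluster could be paired with a gene name, so the enzymes of carotenoid synthesis, photoreceptors and marker genes of the alga are not described. A cluster can be a gene, an allele or an isoform. Total counts were between 17905778 and 19921151 in the blue libraries and between 17674678 and 24526786 in the red ones. The libraries sorted by light. Across clusters, log2 CPM (counts scaled to the size of the library) had correlations of 0.898 to 0.904 within blue, 0.901 to 0.916 within red and 0.854 to 0.888 between blue and red. The first principal component, with 33.2% of the variance, put every blue library on one side and every red library on the other. By edgeR's estimate, the biological coefficient of variation was 42.6% in blue, 38.7% in red and 40.7% over both.

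Blue and red light gave different levels of 3897 clusters, 11.1% of those tested, and most of the differences were small. Blue light had the higher level in 2049 and the lower level in 1848 (quasi-likelihood test of edgeR, adjusted p under 0.05). The higher ones were 5.81% and the lower ones 5.24% of the tested clusters. Of those higher in blue, 1458 differed less than 2-fold, 395 by 2 to 4-fold, 104 by 4 to 8-fold and 92 by 8-fold or more. Of those lower in blue, the numbers were 1193, 471, 89 and 95. At least 2-fold differences were thus found in 591 higher and 655 lower clusters, or 1.68% and 1.86% of those tested and 3.54% together. Differences of 8-fold or more lay mostly at low levels, with a median of 1.099 CPM for higher and 0.757 CPM for lower clusters. Over all calls these medians were 22.3 and 34.2 CPM. The calls of 8-fold or more can include clusters with no counts in a light, whose fitted difference has no firm size. Over all tested clusters, the log2 difference of blue over red had a median of 0.01, a lower quartile of -0.40 and an upper quartile of 0.37.

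Every called cluster had its 3 blue libraries on one side of its 3 red libraries. Such a separation was common, as it was found in 12381 or 35.1% of all tested clusters, 6609 of them higher and 5772 lower in blue. Among called clusters, the nearest blue and red libraries differed by a median factor of 1.39. They lay at least 2-fold apart in 703 clusters, 324 of them higher and 379 lower in blue. No such share of all tested clusters is given here. The median coefficient of variation between libraries of one light was 8.18% in blue and 7.29% in red for called clusters. It was 20.3% in blue and 18.8% in red over all tested clusters.

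The number of calls depended on the libraries used. It was 2708, 1800 or 2160 without blue 1, blue 2 or blue 3, and 1390, 1390 or 2608 without red 1, red 2 or red 3. A set of 1076 clusters, 443 higher and 633 lower in blue, was called with each library left out in turn, which is 27.6% of the calls. Its median log2 difference was 0.91 for the higher and -0.91 for the lower clusters, and its median level was 49.7 CPM. No direction prevailed among all calls, since the share of higher calls was 52.6% with TMM scaling, 47.8% with RLE size factors and 65.2% with library totals as the only scaling (3030 higher, 1620 lower).

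**Figure D1:**
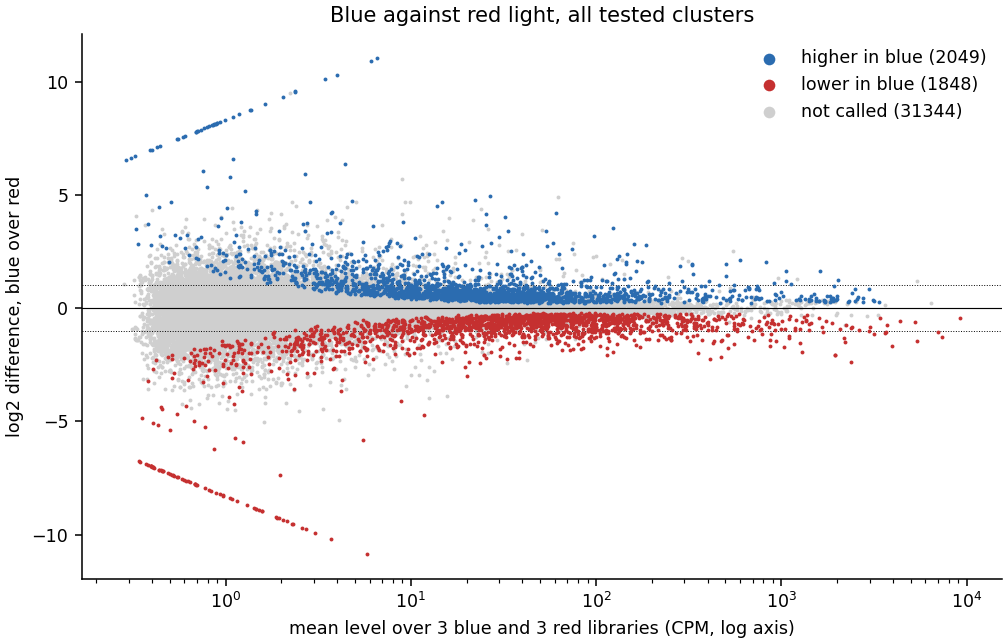
Log2 difference of blue over red against the mean level over the 3 blue and 3 red libraries (CPM, log axis), 1 point per tested cluster. At high levels, most of the 2049 clusters higher in blue (blue points) and the 1848 lower in blue (red points) lie between the 2-fold lines (dotted). Called clusters at low levels differ more, as small differences could hardly be called there. The straight outer rows are clusters with no counts in one of the lights, whose fitted size depends on the prior count.

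Abundant clusters were called far more often than rare ones. Above a mean of 100 CPM, blue was higher in 288 clusters and lower in 417, which is 47.5% of the 1485 tested, against 11.1% over all tested clusters. From 10 to 100 CPM the numbers were 1183 and 966, or 23.0% of 9352. From 1 to 10 CPM they were 513 and 366, or 5.36% of 16406, and under 1 CPM 65 and 99, or 2.05% of 7998. Calls at high levels were of modest size, with a median log2 difference of 0.52 for the higher and -0.65 for the lower clusters above 100 CPM. Under 1 CPM every called cluster differed at least 2-fold, but a smaller difference could hardly be called there. Over all 7998 tested clusters under 1 CPM, the median log2 difference was -0.14.

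The precision of the difference followed the level in the same way. The half-width of its 95% interval had a median of 0.18 on the log2 scale above 100 CPM, 0.26 from 10 to 100 CPM, 0.82 from 1 to 10 CPM and 1.48 under 1 CPM. A difference of a given size was therefore easier to call in abundant clusters. Lower calls outnumbered higher ones above 100 CPM with TMM and with RLE factors (235 higher, 405 lower), but with library totals alone 443 were higher and 409 lower. From 10 to 100 CPM, RLE factors gave 934 higher and 947 lower, and leaving out 1 library gave 326 to 833 higher, fewest without red 2, and 404 to 735 lower, fewest without red 1. For 1 to 10 CPM these ranges were 124 to 270 and 76 to 268, both lowest without red 2. Under 1 CPM they were 7 to 41, fewest without blue 2, and 3 to 91, fewest without red 1. With 1 library left out, the class above 100 CPM had 108 to 315 higher calls, fewest without red 1 and most without red 3. It had 251 to 331 lower calls, fewest without red 1 and most without blue 1. Of the calls above 100 CPM, 48.1% were made with each library left out in turn, and of those from 10 to 100 CPM 28.2%. For 1 to 10 CPM this share was 14.4%, and under 1 CPM 1.83%.

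For many clusters a difference of 2-fold or more lay outside the interval. The 95% interval of the log2 difference lay wholly between -1 and 1 in 14573 clusters, 41.4% of those tested. Of these, 1970 were nevertheless called, 1113 higher and 857 lower in blue, with differences under 2-fold. The bounded clusters made up 84.2% of the class from 10 to 100 CPM and 81.9% of the class above 100 CPM. They were 32.8% of those from 1 to 10 CPM and 1.19% of those under 1 CPM. At the other end, 598 clusters had an interval wholly beyond a 2-fold difference, 285 higher and 313 lower in blue. Of these, 135 were under 1 CPM, 252 from 1 to 10 CPM, 143 from 10 to 100 CPM and 68 above 100 CPM. Clusters with no counts in a light can be among the 598, and their fitted difference has no firm size. A total of 18741 clusters were neither called nor bounded, 7739 of them under 1 CPM and 10221 from 1 to 10 CPM. For these the data do not show whether both lights gave like levels.

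**Figure D2:**
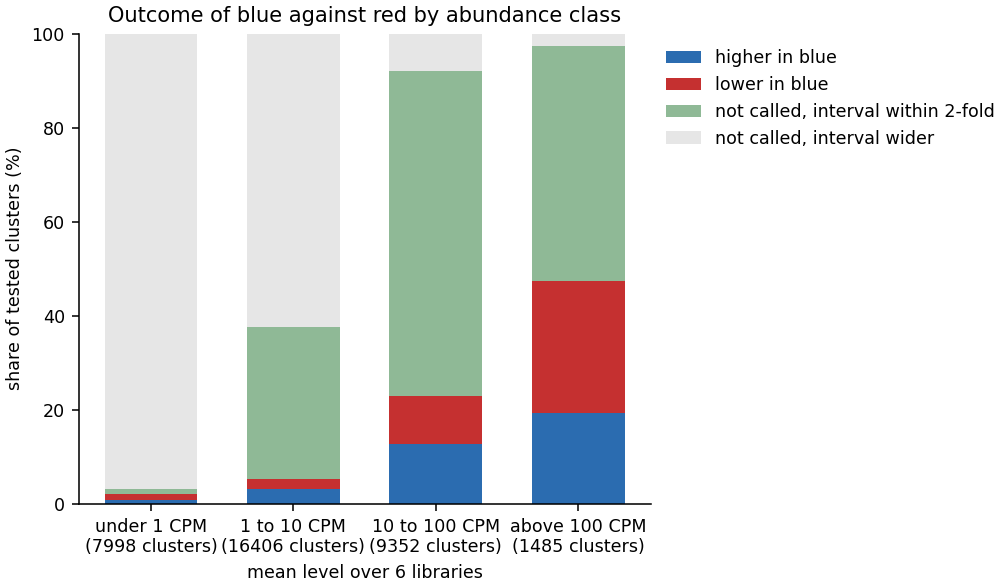
Share of tested clusters (%, vertical axis) by mean level over the 6 libraries (4 classes), split into higher in blue, lower in blue, not called with an interval within 2-fold, and not called with a wider interval. Called clusters make up 47.5% of the class above 100 CPM and 2.05% of the class under 1 CPM, where 96.8% were neither called nor bounded.

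Most of the 10 most abundant clusters were lower in blue. Of the 10 clusters with the highest mean over the 6 libraries, 8 were lower in blue, 0 were higher and 2 were not called (quasi-likelihood test of edgeR). That is 80% called, against 47.5% of clusters above 100 CPM and 11.1% of all tested clusters. The 8 differed by 1.37-fold to 3.23-fold. The most abundant of all had 7808 CPM in blue and 10718 CPM in red on average (edgeR adjusted p = 0.012). The cluster at rank 9 had 1876 CPM in blue and 6059 CPM in red (edgeR adjusted p = 0.00025). The 2 clusters that were not called had higher means in blue, 6912 against 5906 CPM in red at rank 4 (edgeR adjusted p = 0.056) and 7539 against 3316 CPM in red at rank 5 (edgeR adjusted p = 0.099). With RLE factors the 10 clusters again gave 0 higher and 8 lower calls, with library totals 1 and 8, with limma-voom 1 and 8, and with DESeq2 2 and 8. With 1 library left out, 7 or 8 were lower and 0 or 1 higher, and with all 9 libraries in the fit 5 were lower and 0 higher. In a fit of clusters with whole counts only, 3 of the 10 were lower and 0 higher. Clusters with any count that was not whole were left out of that fit, among them the one at rank 2. The 10 were thus not all tested in it. Together the 10 clusters took 4.70% ± 0.47 of the counts in blue and 6.79% ± 0.17 in red (SD, n = 3 each).

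At ranks 11 to 100 the direction was mixed. There, 41 were higher and 24 lower in blue, or 72.2% called. The 90 clusters of this band took 18.7% ± 0.13 of the counts in blue and 18.7% ± 0.68 in red. Their split depended on scaling and libraries: 26 were higher and 24 lower with RLE factors, and 57 and 28 with library totals. Without red 3 there were 55 higher and 23 lower, while leaving out any 1 of the other libraries gave 10 to 19 higher, fewest without red 1, and 20 to 25 lower. With all 9 libraries in the fit, 4 were higher and 17 lower. At ranks 101 to 1000, 173 were higher and 270 lower in blue, or 49.2% called. These were 147 and 259 under RLE factors and 256 and 262 under library totals. With 1 library left out, these were 72 to 187 higher, fewest without red 1, and 160 to 211 lower, fewest without blue 2. In this band lower calls outnumbered higher ones under every alternative run. The 100 most abundant clusters of each light had 72 in common, and the 10 most abundant 6.

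The most abundant clusters took a smaller share of the counts in blue than in red. The 100 most abundant clusters of each library took 23.6%, 24.1% and 24.5% of the counts in blue 1 to 3, against 25.7%, 25.5% and 26.8% in red 1 to 3. A share of 50% of the counts lay in 610, 594 and 550 clusters in the blue libraries and in 529, 533 and 459 clusters in the red ones. For both measures the groups did not overlap (two-sided exact permutation p = 0.1, the smallest that 3 against 3 libraries allow; 0.15 after adjustment over 3 such tests). The number of clusters that held 90% of the counts overlapped, at 8537, 8786 and 8300 in blue and 8385, 8558 and 7640 in red (two-sided exact permutation p = 0.5). After rounding of the estimated counts and thinning to 17674707 of them, the rounded total of red 2, 71494, 75693 and 70925 clusters had at least 1 count in blue, against 78893, 78189 and 73391 in red. These groups overlapped (two-sided exact permutation p = 0.2, 0.2 after adjustment).

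Clusters that differed between the lights held a large part of the RNA. The 1848 clusters lower in blue took 19.2% ± 0.14 of the counts in blue, 32.8% ± 0.32 in red and 27.2% ± 0.064 in white (SD, n = 3 each). The 2049 clusters higher in blue took 25.1% ± 0.12 in blue, 15.9% ± 0.13 in red and 18.1% ± 0.37 in white. The blue and red shares describe clusters selected for that difference and carry no test. Summed over clusters, the differences in mean CPM came to 149650 for the clusters lower in blue and 83242 for those higher. Few clusters carried most of it. A share of 50% of the summed difference lay in 40 of the clusters lower in blue and in 71 of those higher. The 10 largest differences made up 24.4% of the sum for lower and 15.1% for higher clusters.

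**Figure D3:**
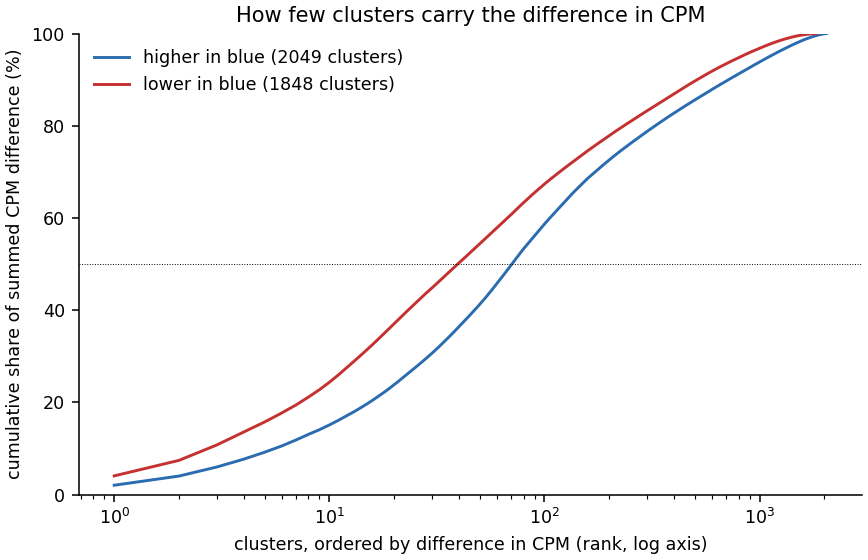
Cumulative share (%) of the summed difference in mean CPM against the rank of the cluster (log axis), for the 2049 clusters higher in blue (blue line) and the 1848 lower in blue (red line). The curve of the lower clusters reaches 50% (dotted line) at 40 clusters and that of the higher ones at 71.

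A pair of clusters in each direction is named, the one with the largest fold difference and the most abundant one with at least a 2-fold difference. They were taken from the called clusters that averaged 10 CPM or more and whose blue and red libraries did not overlap, 1471 higher and 1383 lower in blue. That their blue and red libraries are apart was thus required by the rule and is no finding. All 4 have read counts that are not whole numbers in each of the 6 libraries, so part of their reads was divided with other clusters. A difference between the lights can then be one in how reads were divided. CPM values of blue and red are TMM-scaled over the 6 libraries. Of the alternatives given for each cluster, an adjusted p under 0.01 and at least 2-fold reuse the main fit. The naming rule ensured that all 4 pass the one of at least 2-fold.

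Among clusters higher in blue, the largest fold belonged to Cluster-15686.54753, with an effective length of 2780 bases. It had 50.3, 42.9 and 62.6 CPM in blue 1 to 3, against 2.04, 1.42 and 1.58 CPM in red 1 to 3. The lowest blue library lay far above the highest red one. The log2 difference was 4.93 ± 0.21 (SE), a 30.5-fold higher level in blue, with an interval of 4.42 to 5.45 (edgeR adjusted p = 0.00049). It passed in all 16 alternatives that tested it, with log2 differences of 4.79 to 5.09. Scaled over all 9 libraries, its level was 60.1, 19.3 and 51.0 CPM in white 1 to 3, so all white libraries were above all red ones and the white range took in the blue one.

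The most abundant cluster at least 2-fold higher in blue was Cluster-15686.46358 (4208 bases), at rank 46 of the tested clusters by mean level. It had 2882, 2657 and 2999 CPM in blue 1 to 3, against 1260.1, 1174 and 1195 CPM in red 1 to 3. The libraries of one light were close to each other and the lights did not overlap. The log2 difference was 1.23 ± 0.065 (SE), 2.35-fold, with an interval of 1.08 to 1.39 (edgeR adjusted p = 0.00070). It passed in all 16 alternatives that tested it, at 1.19 to 1.30. In white it had 1137, 960.3 and 1049.97 CPM, scaled over 9 libraries, against 1154, 1088 and 1108 CPM in red on that scale, so that both ranges met while all blue libraries lay above.

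The largest fold among clusters lower in blue was that of Cluster-15686.44853 (1194 bases). It had 1.53, 0.722 and 0.331 CPM in blue 1 to 3, from 28, 15 and 6 counts, against 14.5, 38.4 and 15.3 CPM in red 1 to 3. Red 2 was more than double the other red libraries, and no blue library reached the lowest red one. The log2 difference was -4.71 ± 0.67 (SE), 26.3-fold lower in blue, with an interval of -6.35 to -3.10 (edgeR adjusted p = 0.010). It was -5.38 without blue 1 and -4.12 without red 2. Without blue 2 the edgeR adjusted p was 0.053, with limma-voom 0.065, without the filter 0.064 and with all 9 libraries in the fit 0.11, within a range of 2.5e-09 to 0.11 over 16 alternatives. Its white libraries spanned 5.88 to 137 CPM, scaled over 9 libraries, which took in every red library on that scale.

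The most abundant cluster at least 2-fold lower in blue was Cluster-15686.47805 (746 bases), the second most abundant of all tested clusters. It had 3776, 4295 and 5017 CPM in blue 1 to 3, against 10705, 9934 and 10751 CPM in red 1 to 3. Even the highest blue library was under the red ones by a wide gap. The log2 difference was -1.26 ± 0.11 (SE), 2.40-fold lower in blue, with an interval of -1.53 to -0.996 (edgeR adjusted p = 0.0023). It passed in all 16 alternatives that tested it, at -1.36 to -1.15. In white it had 9878, 16158 and 13800 CPM, scaled over 9 libraries, above all blue libraries.

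**Figure D4:**
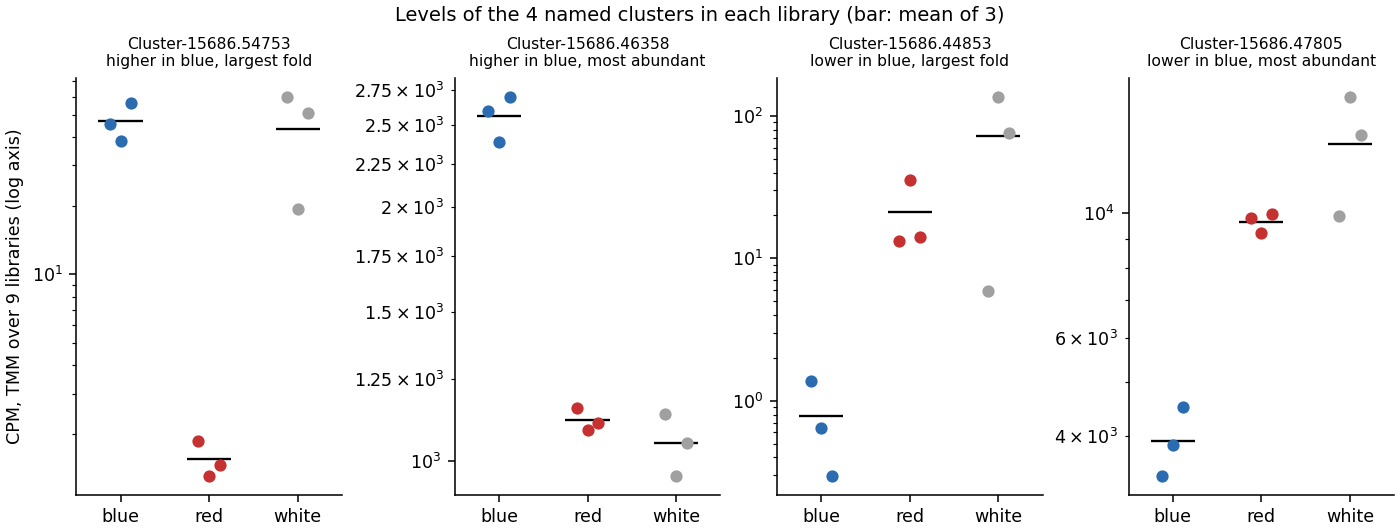
Level of the 4 named clusters (CPM scaled by TMM over all 9 libraries, log axis) in each blue, red and white library, with the mean of 3 as a bar. Blue and red libraries do not overlap in any of the 4, as the naming rule required. The white libraries range across the blue ones for Cluster-15686.54753 and near red for Cluster-15686.46358.

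Some clusters were counted in one light and not at all in the other. Among the tested clusters, 35 had no counts in the 3 red libraries and 55 had none in the 3 blue libraries. All of them were called and had counts in all 3 libraries of the other light. They could pass the filter on low counts only through that light, so their being called is no finding. Their levels were low. The 35 had a median of 1.71 CPM and at most 13.1 CPM in blue, and the 55 a median of 1.36 and at most 6.08 CPM in red. For 1 library without counts, a level of up to 0.122 to 0.170 CPM (3 counts) remains possible by counting error alone. Of the 35, 21 had counts in white, and of the 55, 35 had.

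The effective length of the transcript was known for clusters with at least 50 counts in some library. It was not known for 10482 tested clusters, of which 1.72% were called, against 11.1% of all tested clusters. The classes of length thus leave out many clusters with few counts. Calls were more frequent at medium lengths, with 16.8% of clusters of 1000 to 3000 bases, 13.1% of those of 300 to 1000, 14.5% of those above 3000 and 10.8% of those under 300. Between 10 and 100 CPM these shares were 24.3%, 23.1%, 19.8% and 22.9%. With TMM scaling higher and lower calls were near balance in the longer classes, at 51.7% to 52.3% higher, while RLE factors gave 46.7% to 47.2% and library totals 63.7% to 65.5%. Under 300 bases, 155 were higher and 67 lower in blue, so 69.8% of the calls were higher, against 52.6% over all calls. This share was 66.8% with RLE factors, 78.9% with library totals, 66.9% with DESeq2 and 71.0% with limma-voom. The counts were smaller with 1 library left out, at 29 to 121 higher (fewest without red 1) and 15 to 45 lower (fewest without red 2).

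By level and with TMM scaling, short clusters from 1 CPM up leaned in the same direction as all clusters of that level. Between 1 and 100 CPM they leaned more strongly to higher calls than all clusters did. Under 1 CPM, 0 of the 89 short clusters were called, beside 65 higher and 99 lower of all 7998. Above 100 CPM, 4 of the 22 short clusters tested were higher and 9 lower in blue, beside 288 and 417 of all 1485. From 10 to 100 CPM, 43 of 253 were higher and 15 lower, beside 1183 and 966 of all 9352. From 1 to 10 CPM, 108 of 1691 were higher and 43 lower, beside 513 and 366 of all 16406. The 67 lower ones took 0.613% ± 0.036 of the counts in blue and 1.47% ± 0.079 in red, and the 155 higher ones took 0.609% ± 0.095 in blue and 0.320% ± 0.012 in red (SD, n = 3 each). In white, the 155 took 1.94% ± 0.85 of the counts, but their median level, scaled over 9 libraries, was 2.996 CPM in white, against 6.82 CPM in blue and 2.66 CPM in red. All 2055 short tested clusters together took 2.53% ± 0.25 of the counts in blue, 2.91% ± 0.13 in red and 5.91% ± 1.7 in white.

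With all levels pooled, clusters with divided reads were called less often, but their median level was also lower, at 2.75 against 5.74 CPM. Counts were whole in all 6 libraries for 8542 tested clusters, of which 14.0% were called, against 10.1% of the 26699 with at least 1 divided count. From 1 to 10 CPM, 6.96% of whole and 4.96% of divided clusters were called. The shares were 23.8% and 22.6% from 10 to 100 CPM, and 46.6% and 47.9% above 100 CPM.

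The white libraries, which the test did not use, show where these clusters stood under broad light. On means scaled over 9 libraries, the 2049 clusters higher in blue had a white level above both colours in 818, between them in 565 and below both in 666. The 1848 clusters lower in blue had 640, 456 and 752. By these means, white was thus not between blue and red for most called clusters. All white libraries lay above all 6 blue and red ones in 434 of the 2049 clusters and below them in 383. For the 1848 clusters these numbers were 372 and 417. In the other called clusters, the white libraries were not all on one side of these 6. The white positions were not counted over all tested clusters. They thus cannot be said to be particular to the called ones. Among clusters at least 2-fold lower in blue, the white mean was below both colours in 302 of 655, between them in 205 and above both in 148. On a log2 scale with 0.1 CPM added, it was nearer to blue in 426 and nearer to red in 229 of these 655. For the 591 at least 2-fold higher in blue it was nearer to blue in 279 and nearer to red in 312, while over all 2049 higher in blue it was nearer to blue in 1093 and nearer to red in 956. Over all 1848 lower in blue these numbers were 998 and 850. By edgeR's estimate on the same clusters, the biological coefficient of variation was 76.6% in white, and no test was made of these positions.

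**Figure D5:**
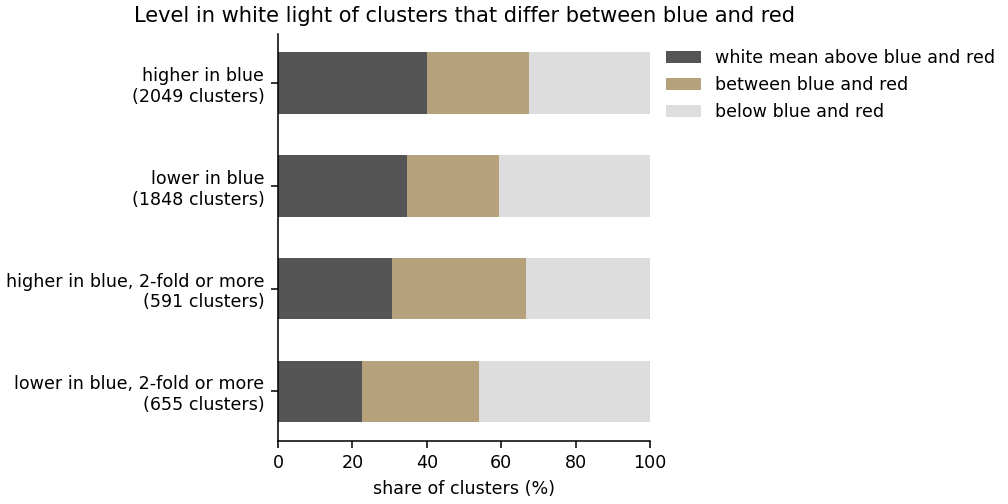
Share (%) of clusters whose mean level in white light was above, between or below the means of blue and red, for clusters higher and lower in blue, over all calls and those of at least 2-fold. The middle part, where white lies between both colours, is 27.6% and 24.7% for all calls and 36.0% and 31.3% for those of at least 2-fold.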

How the data were processed

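Total RNA of 9 samples was sequenced, and the 3 blue and 3 red libraries were compared. Per the labels' protocols, RNA was taken with Trizol and 1.5 µg went into each Illumina library (NEBNext Ultra RNA). The aligner, counting tool, assembly and annotation are not given in the sources used here; the submitters' processing notes name DESeq 1.10.1. The deposited counts are estimated counts, not scaled, and 29.7% to 33.9% of values per library are not whole. The FPKM values deposited by the authors were used only to derive effective lengths, from libraries with at least 50 counts of a cluster. The identifiers were looked up among 16683 reference genes (assembly Dunsal1 v. 2) with 0 matches, so the lists of named genes were not tested.

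Counts were rounded, filtered with filterByExpr on the 6 libraries (minimum 10 counts, 15 in total; 98.9% to 99.2% of counts kept) and scaled by TMM. The model had light as its only term and was fitted in R 4.3.3 with robust glmQLFit and glmQLFTest of edgeR 4.0.16. The SE is the estimate over the root of F, and the 95% interval uses the total degrees of freedom. All p-values were adjusted by Benjamini-Hochberg across the tested clusters, at a threshold of 0.05. Since identifiers carry no names, 2 clusters in each direction are named. Chi-square per cluster, near 1 for repeat runs of a library, was 7.00 or more for each pair within a light. The code was tested on simulated data. Alternatives were RLE factors, library totals, limma-voom (limma 3.58.1), DESeq2 1.42.0, a mean of at least 10 CPM or no filter, all 9 libraries, a replicate block, leaving out each library, stricter thresholds and whole counts only. The comparison, the naming rule, the classes and the tests were chosen with earlier results of these data known. Intervals and floors cover counting error or the spread between these samples only.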

Additional observations from a re-analysis of the deposited data

How the results depend on the processing

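The 4 named clusters kept their direction under every alternative that tested them, and 0 of the 3897 calls were called in the opposite direction in any of them. The count stayed within 1.5 times with RLE factors (3479), library totals (4650), limma-voom (3820), no filter (2610) and a mean of at least 10 CPM (4273). It was 6858 with DESeq2 (3368 higher and 3490 lower in blue), which held all 3897 calls. It was 647 with all 9 libraries (256 and 391), a fit whose biological coefficient of variation was 58.8%, against 40.7% with 6, 1226 at an adjusted p under 0.01 (550 and 676) and 1246 with at least a 2-fold estimate (591 and 655). Tested alone, the 8542 clusters with whole counts gave 2409 calls (1202 and 1207), against 1198 of them called among all clusters. Without the filter 1286 were higher. Leaving out 1 library, which also lowers the number of samples, gave 1390 to 2708 calls (595 to 1452 higher and 755 to 1426 lower). The clusters bounded within 2-fold numbered 9127 at a mean of at least 10 CPM, where fewer were tested, 8652 with all 9 libraries and 12836 to 13486 with 1 library left out. With the replicate number as a block, 2068 clusters were called (955 and 1113). The deviations of same-numbered blue and red libraries had correlations of 0.0049, 0.036 and 0.011. Blue 2, blue 3 and red 2 correlated best with their own number, while blue 1, red 1 and red 3 did not. With 3 libraries per light, this cannot decide whether the numbers pair the samples. The 3 single values per library kept their direction in every alternative run. The cause of the other shifts was not tested. Under 1 CPM, 96.8% of clusters were neither called nor bounded, and the parts of depth and of the spread between samples in this were not separated.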
